A study of Mus musculus with 15 samples.

Results

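The 9 mammary tumors of this mouse series were divided by how much Met they carried, and the RNA of the 6 tumors with high Met was compared with that of the 3 with low Met. Met encodes the cell-surface receptor for hepatocyte growth factor. The groups were chosen by Met itself, measured by RNA-seq in the first library of each tumor in TPM (a library's transcript share after division by gene length, scaled to the same total in every library): tumors 64, 273_5, 567, 897, 219 and FVB002 held at least 100 TPM and are called Met-high, and tumors 89, 3956 and FVB001 held less and are called Met-low. These 9 libraries are part of 15, taken from 13 mice, which also include the mammary glands of 4 control mice and a repeat library each for tumor 3956 and control gland 133.

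Tumors 64, 89, 273_5, 567, 897 and 3956 are Trim24COE tumors of FVB virgin females, in which MMTV-Cre removes a stop cassette and so allows mammary epithelium to express a FLAG-tagged mouse Trim24 transgene. That transgene is a single insertion on chromosome 1. Tumors 219, FVB001 and FVB002 are Non-TRIM24 tumors that arose spontaneously. Their strain is labelled FVB, although the study's text allows FVB or FVB/129 mice, and their genotype is labelled unknown. The control glands carry MMTV-Cre, and the series describes their background as FVB/129. The ages of the mice are not among the labels. Tumors 64, 567 and 897 are labelled carcinosarcoma, a tumor with epithelial and mesenchymal parts, and all are Met-high, while the other 6 tumors are labelled carcinoma. In the study's pathology notes the reviewers differed on tumors 89, 567 and 3956. Every Trim24COE tumor was first sequenced in batch 1 and every Non-TRIM24 tumor in batch 2, so genotype and batch cannot be told apart among the tumors, but each Met group holds tumors of both.

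MET is a receptor tyrosine kinase of epithelial cells. Its ligand, hepatocyte growth factor, comes mainly from stromal cells, is cut into its active form by proteases such as hepsin and matriptase, and makes the receptor phosphorylate docking sites that feed the RAS-ERK, PI3K-AKT and STAT3 routes. In the mammary gland this signal takes part in duct branching.

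Met in the Met-high tumors 64, 273_5, 567, 897, 219 and FVB002 stood at 227, 1292, 777, 792, 232 and 239.5 TPM. In the Met-low tumors 89, 3956 and FVB001 it stood at 28.5, 30.9 and 22.6 TPM. The means were 593 ± 436 TPM (SD, n = 6) and 27.4 ± 4.27 TPM (SD, n = 3), and since Met chose the groups this difference was not tested. The tumors nearest to the threshold on either side were tumor 64 at 227 TPM and tumor 3956 at 30.9 TPM, 7.34-fold apart. The Met-low tumors lay in the range of the 4 control glands, 20.9 to 42.4 TPM, whereas the lowest Met-high tumor was 5.36-fold above the highest gland. Within the Met-high group the level spanned 5.69-fold, and both Non-TRIM24 members were near its lower end beside tumor 64. A repeat library of tumor 3956 gave 19.6 TPM. Trim24, the gene of the transgene, was at 10.6, 13.9, 12.02, 14.5, 5.34 and 10.04 TPM in the Met-high tumors in the same order, at 24.1, 16.4 and 9.34 TPM in the Met-low tumors and at 14.5 to 22.4 TPM in the glands. Trim24 in the 6 Trim24COE tumors thus ran from 10.6 to 24.1 TPM and overlapped the glands.

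**Figure D1:**
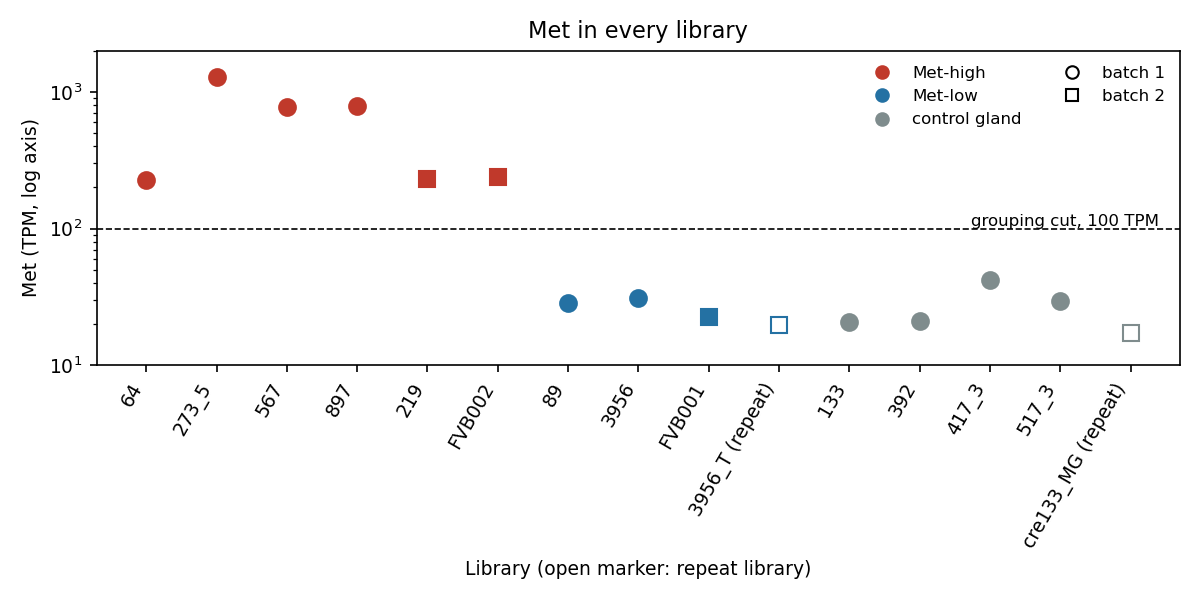
Met in TPM on a log axis in every library, coloured by group, with circles for batch 1, squares for batch 2, open markers for repeat libraries and a dashed line at the 100 TPM threshold. The 6 Met-high tumors sit at 227 TPM or more, and the 3 Met-low tumors and the 4 control glands all sit at 42.4 TPM or less.

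The comparison asked which other genes differed between the groups. On log2(TPM + 1), with batch as a covariate, limma tested 15201 genes, and 0 (0.0%) passed a Benjamini-Hochberg adjusted p of 0.05. At an unadjusted p under 0.05, 595 genes (3.91%) were higher and 684 (4.5%) lower in Met-high tumors, in total 1279. In 133 genes (0.875%) every Met-high tumor lay above every Met-low tumor, and in 161 (1.06%) every one lay below. The smallest adjusted p was 0.0555, shared by Tes and Gm15473, which lie next to each other on chromosome 6 near Met. The median log2 difference over all genes was -0.11, and it moved to -0.02 after median-ratio scaling and to 0.01 after quantile normalisation, so small differences are best read against it.

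Among genes whose groups did not overlap, the 6 largest log2 differences lay around Met, which spans bases 17463800 to 17573980 of chromosome 6 in GRCm38. Of 71 other genes annotated with a start within 3 Mb of the start of Met, 22 were expressed enough to be tested. In 7 of the 22 (31.8%, against 0.875% of all genes) the Met-high tumors all lay above the Met-low tumors, and in 0 they all lay below. By unadjusted p, 11 of the 22 (against 3.91% of all genes) were higher and 0 lower, and the median log2 difference was 1.87. Genes were placed in this window by position and not by their values, but the window was set with earlier results of these data known. The filter for testing, at least 1 TPM in at least 3 of the 9 tumors, could be met by Met-high tumors alone. Cftr, Ankrd7, Gm27762, Gm43843 and Gm43924 met it that way, with every Met-low tumor under 1 TPM. Such genes could hardly come out lower, so these counts are a description.

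Tes, 0.40 Mb before Met, encodes testin, a LIM-domain protein of focal adhesions. Its level was 1172, 4042, 2388, 3454, 2167 and 1295 TPM in tumors 64, 273_5, 567, 897, 219 and FVB002, and 71.3, 149 and 142 TPM in tumors 89, 3956 and FVB001. No tumor of one group reached the other, and the glands held 14.6 to 94.4 TPM. The log2 difference was 4.24 ± 0.45 (SE), with an unadjusted p of 7.31e-06 and a limma adjusted p of 0.0555. Gm15473 is a noncoding RNA on the opposite strand whose start lies beside that of Tes. It ranged from 5.36 to 20.5 (median 10.5) TPM in Met-high tumors and was at 0.21, 0.29 and 1.32 TPM in the Met-low tumors, a log2 difference of 2.93 ± 0.29 (SE) with a limma adjusted p of 0.0555.

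Capza2, 0.17 Mb after Met, encodes a subunit of the protein that caps actin filaments, and it reached the highest level of the region. Its level was 1877, 10331, 3771, 4279.5, 1484 and 965 TPM in the Met-high tumors in the same order and 116, 174 and 128 TPM in the Met-low tumors. Every Met-high tumor was above every Met-low tumor and every gland (70.02 to 109 TPM), by a log2 difference of 4.32 ± 0.54 (SE) with a limma adjusted p of 0.123. St7, 0.23 Mb after Met, named as a suppressor of tumorigenicity, ranged from 127 to 719 (median 217) TPM in Met-high tumors. In the Met-low tumors St7 was at 9.25, 14.2 and 29.9 TPM, a log2 difference of 3.88 ± 0.59 (SE, limma adjusted p = 0.362). Tumor 273_5 held the highest Met, Tes, Capza2 and St7 of all tumors.

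Cav2 and Cav1, 0.18 and 0.16 Mb before Met, encode caveolins, which shape membrane pits and are abundant in fat and endothelium. Cav2 was at 612, 2816, 864, 815, 364 and 302 TPM in the Met-high tumors and at 51.6, 62.4 and 119 TPM in the Met-low tumors, again without overlap (log2 difference 3.28 ± 0.61, SE). Cav1 was at 1144, 567, 2032, 4019, 491 and 586 TPM in the Met-high tumors and at 120.5, 73.5 and 739 TPM in the Met-low tumors. Cav1 overlapped because of tumor FVB001, whose level was close to that of the fat-rich glands 133 and 392 (740.3 and 619 TPM). FVB001 also had the highest sum of 16 adipocyte genes of any tumor, 68878 TPM. In batch 1, where the adipocyte sum was at most 2458 TPM, Cav1 ran from 567 to 4019 TPM in 4 Met-high tumors against 120.5 and 73.5 TPM in the 2 Met-low tumors. Without FVB001 the log2 difference of Cav1 was 4.00, against 2.51 with it. The part of fat content in the Cav1 levels was not tested. The antisense transcript Gm4876 overlaps Tes, and reads of the 2 can be told apart only where strand was used in counting, which is not given in the sources used here (the labels name a stranded kit and the study's methods another kit). Gm4876 ranged from 13.1 to 74.8 (median 40.97) TPM in Met-high tumors and was at 0.83, 0.98 and 26.8 TPM in the Met-low tumors, where FVB001 exceeded tumor 64.

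**Figure D2:**
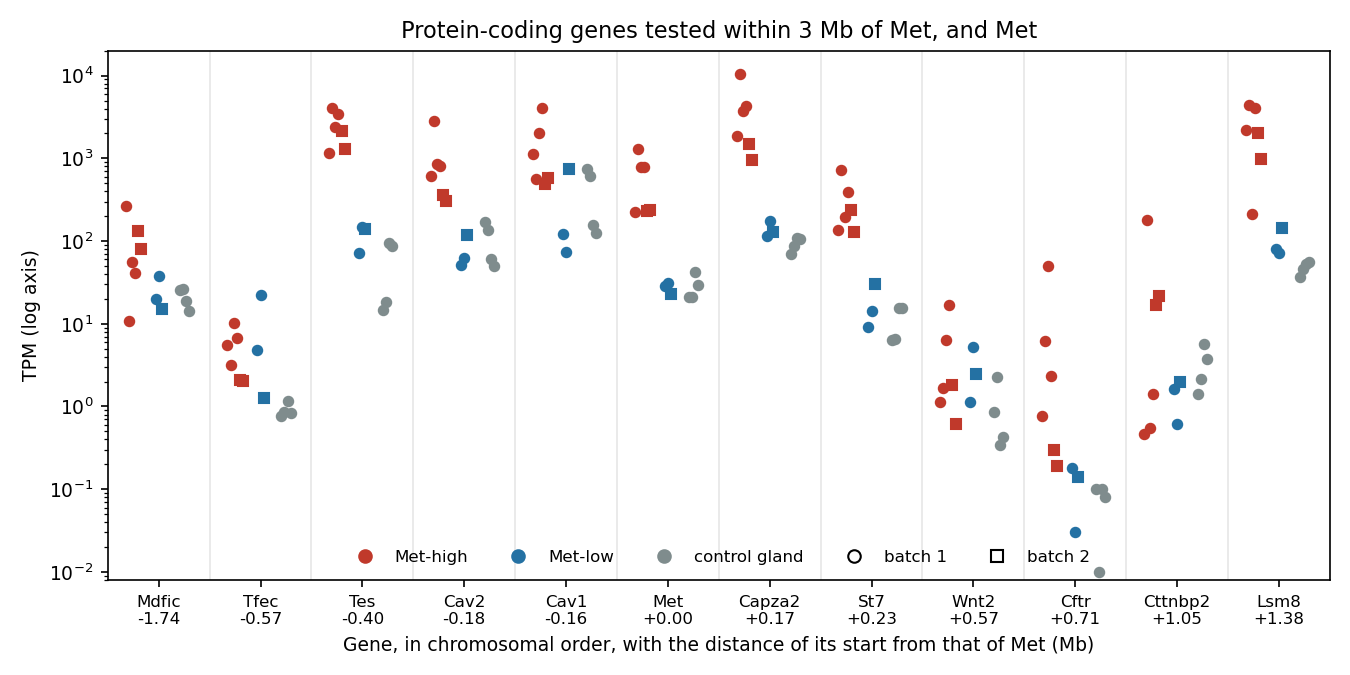
TPM on a log axis for Met and the 11 protein-coding genes other than Ankrd7 that were tested within 3 Mb of it, in chromosomal order, with 1 point for each tumor or gland. From Tes at -0.40 Mb to St7 at +0.23 Mb, and again in Lsm8 at +1.38 Mb, the Met-high tumors lie above the Met-low tumors, apart from the overlap of Cav1.

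Beyond St7 the genes behaved differently from tumor to tumor. Lsm8, 1.38 Mb after Met, encodes a protein of the U6 small nuclear RNA complex. It was at 2206, 4428, 213, 4058, 2009 and 982 TPM in the Met-high tumors and 79.1, 71.2 and 142 TPM in the Met-low tumors, so that tumor 567 came close to the Met-low level while the other 5 were far above it (log2 difference 4.09 ± 0.90, SE). Cttnbp2, 1.05 Mb after Met, which encodes a cortactin-binding protein of neurons, was at 0.47, 182, 0.55, 1.43, 16.9 and 21.7 TPM in the Met-high tumors. It exceeded the Met-low tumors (0.61 to 2.00 TPM) in tumors 273_5, 219 and FVB002 only. Cftr, which encodes a chloride channel, was at 0.76, 6.26, 50.6, 2.32, 0.30 and 0.19 TPM in the Met-high tumors and 0.18, 0.03 and 0.14 TPM in the Met-low tumors, without overlap but below 1 TPM in 3 of the 6, and in tumor FVB002 barely above tumor 89. Ankrd7 was at 0.45, 4.46, 0.00, 3.11, 5.18 and 1.28 TPM in the Met-high tumors and at most 0.12 TPM in the Met-low tumors, which tumor 567 did not exceed. Wnt2, a secreted WNT ligand, overlapped between groups, with tumor 897 highest at 16.8 TPM.

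Upstream, the high levels did not reach Tfec. Tfec, a transcription factor gene 0.57 Mb before Met, was at 2.05 to 10.2 (median 4.38) TPM in Met-high tumors and highest in the Met-low tumor 3956 (22.3 TPM). Mdfic, a regulator of transcription factors 1.74 Mb before Met, was at 265, 10.8, 56.6, 40.7, 132 and 81.2 TPM in the Met-high tumors and 20.2, 37.9 and 15.1 TPM in the Met-low tumors, so that the tumor with the most Met had the least Mdfic. Most of the remaining tested loci are noncoding. Gm27762, Gm27960 and Gm27365, short RNAs within St7, were at 0 TPM in 1 to 4 of the 6 Met-high tumors, and Gm26809 and Gm20186 beside Lsm8 overlapped between groups, as did Gm43843, Gm43924 and the pseudogene Gm5874. The 49 untested genes stayed at or under 9.32 TPM in every Met-high and 1.09 TPM in every Met-low tumor, among them the coding genes Ppp1r3a, Foxp2 and Asz1 at or under 1.00 TPM in Met-high tumors.

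For a comparison across the 9 tumors, the batch means were taken off log2(TPM + 1). Pearson's r with Met was then 0.988 for Capza2, 0.984 for Tes, 0.975 for Gm15473, 0.972 for St7 and 0.949 for Cav2. For Gm4876, Lsm8, Cav1 and Mdfic it was 0.944, 0.818, 0.717 and 0.217. These values are a description over 9 tumors that fall into separate groups, so the gap between the groups raises them. Within the 6 Met-high tumors the batch means were not taken off, so batch and genotype can enter the values that follow. There r was 0.944 for Capza2, 0.88 for Tes, 0.88 for Cav2 and 0.813 for St7. It was 0.39 for Cav1, 0.252 for Gm4876, 0.1 for Lsm8, -0.066 for Gm15473 and -0.894 for Mdfic.

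The promoters of Met and of Tes and Capza2, its coding neighbours with the smallest p, are shown because these genes stood high together. Each run below is the 300 bases around the RefSeq start of the gene on the plus strand of GRCm38.p6 chromosome 6, with matches to the AP-1 motif (TGAGTCA, or TGACTCA on the other strand) and to the GC box bound by SP1 (GGGCGG, or CCGCCC on the other strand) in capitals. AP-1 matches occurred in 5.2% and GC boxes in 35.7% of 32851 such promoter windows. Met held 1 AP-1 match and 3 GC boxes, Tes 0 and 2, and Capza2 0 and 1. The GC content was 75.7%, 64.7% and 73.0%, against a median of 52.7% over all windows.
Met, chr6:17463707-17464006: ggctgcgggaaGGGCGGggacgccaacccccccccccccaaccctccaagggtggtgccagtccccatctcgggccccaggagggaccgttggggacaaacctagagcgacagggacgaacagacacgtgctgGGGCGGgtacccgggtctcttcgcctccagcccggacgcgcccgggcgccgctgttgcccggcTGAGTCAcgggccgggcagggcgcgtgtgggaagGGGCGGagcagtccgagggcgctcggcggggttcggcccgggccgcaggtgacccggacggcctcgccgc
Tes, chr6:17064899-17065198: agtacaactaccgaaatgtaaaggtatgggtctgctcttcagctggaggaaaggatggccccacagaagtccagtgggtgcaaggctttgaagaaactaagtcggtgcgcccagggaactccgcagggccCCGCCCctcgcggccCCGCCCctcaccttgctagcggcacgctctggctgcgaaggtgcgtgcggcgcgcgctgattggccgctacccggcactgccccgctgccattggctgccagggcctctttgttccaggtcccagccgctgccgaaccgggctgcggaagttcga
Capza2, chr6:17636760-17637059: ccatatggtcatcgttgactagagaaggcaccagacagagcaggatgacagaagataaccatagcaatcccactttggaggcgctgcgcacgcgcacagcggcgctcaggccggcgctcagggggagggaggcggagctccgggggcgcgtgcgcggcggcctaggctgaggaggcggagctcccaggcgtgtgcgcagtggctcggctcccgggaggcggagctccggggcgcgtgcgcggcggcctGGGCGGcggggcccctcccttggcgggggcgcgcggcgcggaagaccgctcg
A match of letters is a description of the window and not of binding.

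A wider view showed how far the high levels reached in each tumor. Genes were counted whose TPM + 1 was over 4 times that of the highest control gland. The share of all tested genes past this mark was not counted, so the numbers below are a description. Between 0.5 Mb before and 0.5 Mb after Met, 4 to 9 of 10 tested genes did so in each Met-high tumor, and 0 of 10 in each Met-low tumor. From 0.5 to 1.5 Mb after Met, 1 to 5 of 9 did so in Met-high tumors and 0 in Met-low tumors. From 1.5 to 15 Mb after Met, 0 of 45 did so in each Met-high tumor, and 1 did so in the Met-low tumor FVB001 (Rbm28). Between 3 and 0.5 Mb before Met lie 3 tested genes, of which Mdfic did so in tumors 64 and 219, and Tfec in tumor 567 and in the Met-low tumor 3956. Before Met, from 15 to 3 Mb, 21 of 37 did so in tumor 64, against 0 to 2 in each of the other 8 tumors.

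The long stretch of tumor 64 held genes of unrelated function. Sem1, 10.89 Mb before Met, encodes a small proteasome subunit and was at 2652 TPM in tumor 64, against 138 to 215 TPM in the other Met-high tumors and 97.7 to 131 TPM in the Met-low tumors. Ndufa4, which encodes a respiratory chain subunit, was at 3918 TPM in tumor 64 and at most 1186 TPM in the other tumors. Asns, asparagine synthetase, was at 288 TPM in tumor 64 and at most 84.5 TPM elsewhere among the tumors. Bet1, a vesicle transport gene 13.38 Mb before Met, was at 489 TPM in tumor 64 and at most 46.98 TPM in the others. Gpr85, 3.62 Mb before Met, was at 42.5 TPM in tumor 64 and at most 5.71 TPM in the others. Tumor 64 also had the highest Mdfic (265 TPM), although its Met was the lowest of the group. DNA copy number of the tumors was not analysed here.

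**Figure D3:**
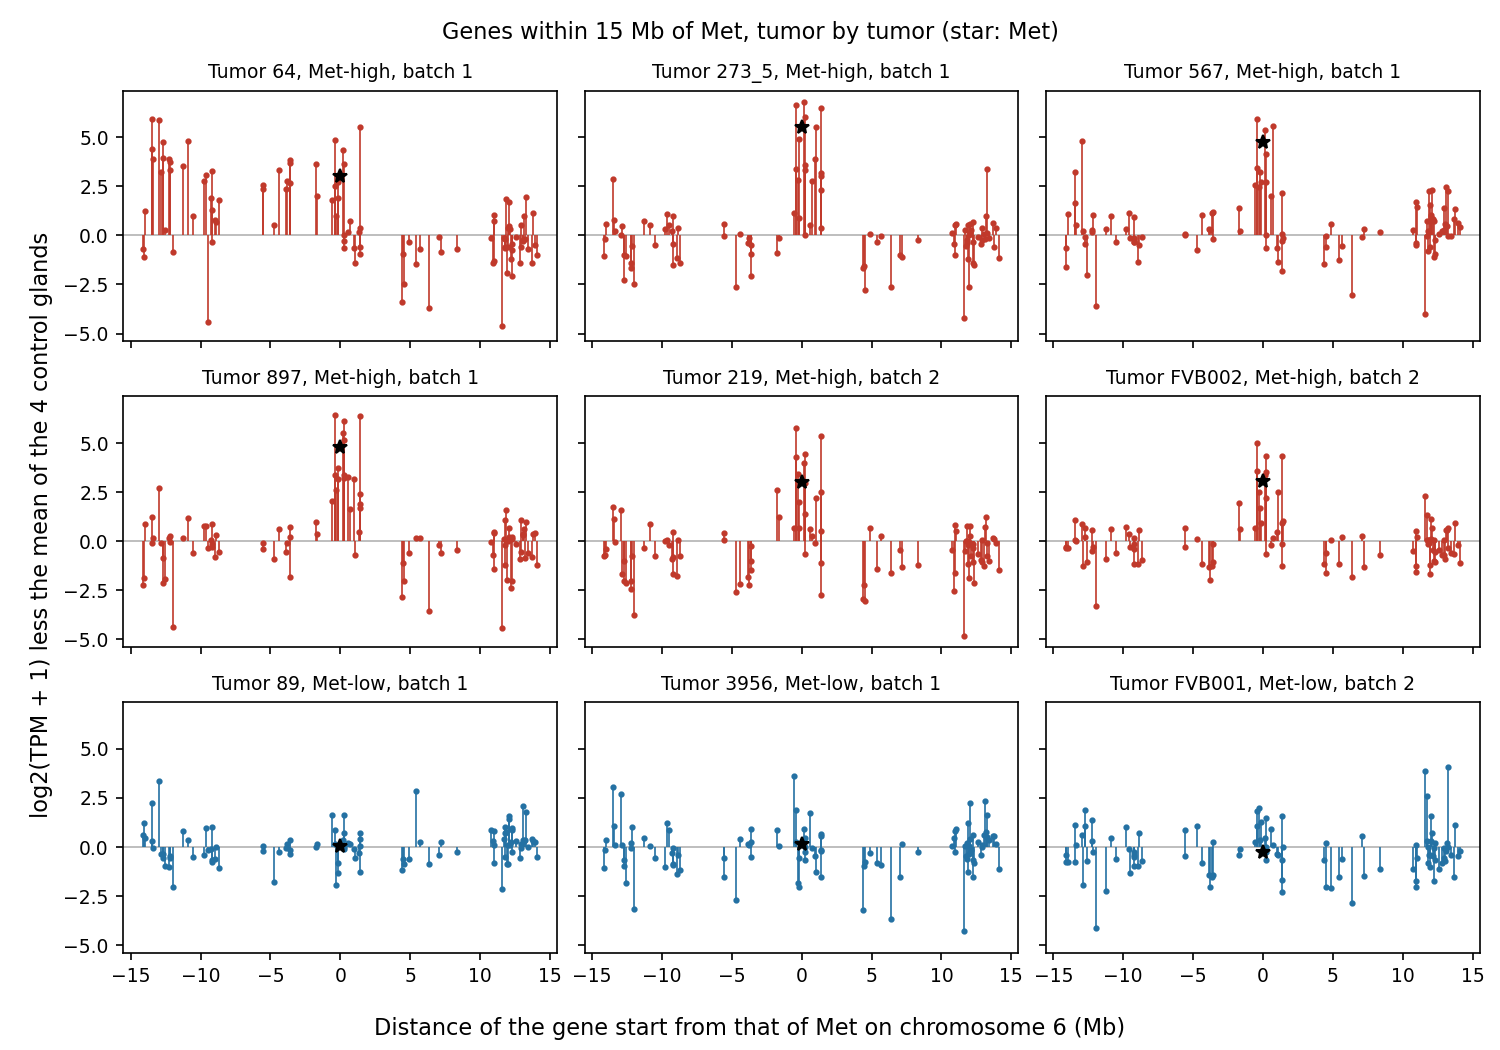
For each tumor, log2(TPM + 1) less the mean of the 4 control glands for the tested genes within 15 Mb of Met, against the distance of the gene's start from that of Met in Mb, with Met as a star. The 6 Met-high tumors show a narrow peak at Met, and tumor 64 shows further high genes from about -13.5 to -3.5 Mb. The 3 Met-low tumors show no peak at Met itself, although Tes beside it stands at 0.855, 1.91 and 1.835 in tumors 89, 3956 and FVB001.

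Away from Met, the genes with the smallest p among those whose groups did not overlap missed the adjusted threshold. Of 12 such genes on the higher side, Tes, Capza2, St7 and Cav2 belong to the block. Pebp1, the RAF kinase inhibitor protein, was at 457 to 679.9 (median 589) TPM in Met-high tumors against 289, 271 and 273 TPM in Met-low tumors, a log2 difference of 1.06 ± 0.18 (SE, limma adjusted p = 0.395). Bex3, on the X chromosome, ran from 93.5 to 284 (median 176) TPM against 69.9, 86.4 and 42.1 TPM. Khdrbs3, an RNA-binding splicing regulator, ran from 25.2 to 86.2 (median 42.6) TPM against 22.6, 12.9 and 4.83 TPM, and the glands held 10.9 to 40.5 TPM. Fkbp11, a protein-folding enzyme of the secretory pathway, ran from 54.6 to 188 (median 112) TPM against 37.7, 24.9 and 40.2 TPM. The remaining ones were Syce2 (log2 difference 1.85), Limd2 (1.28), Copz1, a coatomer subunit (0.83), and Spata5 (1.27). None of these differences outside the block exceeded 2.00 on the log2 scale, against 4.24 for Tes.

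On the lower side, Sned1, a gene of the extracellular matrix, had the smallest p. It was at 0.77, 0.98, 0.85, 0.97, 0.87 and 1.93 TPM in the Met-high tumors and 6.12, 5.97 and 5.06 TPM in the Met-low tumors, a log2 difference of -1.72 ± 0.24 (SE, limma adjusted p = 0.258). The glands, at 3.17 to 9.74 TPM, all lay above the Met-high tumors. Rasa4, which encodes a protein that switches RAS off, was at 6.14 to 24.5 (median 13.9) TPM in Met-high tumors and 50.2, 91.1 and 35.1 TPM in Met-low tumors (log2 difference -1.92 ± 0.43, SE). Bcar3, an adaptor protein gene, was at 6.27 to 14.4 (median 7.99) TPM against 15.6, 32.8 and 34.5 TPM. Card10, a scaffold of NF-kappaB signalling, was at 4.01 to 13.2 (median 7.93) TPM against 21.01, 25.9 and 18.5 TPM. Mettl7b had the largest estimate of the 12, -2.16 ± 0.47 (SE), at 0.20 to 3.54 (median 0.63) TPM against 6.25, 6.51 and 11.99 TPM. Slc6a4, the serotonin transporter, Unc13b, which primes synaptic vesicles, and Garnl3 were at or under 2.61 TPM in every Met-high tumor. The rest, Mbp, Scaf1, Ccdc9b and Mrm1, had log2 differences between -1.45 and -0.89. All of these adjusted p-values were 0.258 or above. The glands stood differently from gene to gene. In Card10 (glands at 8.73 to 13.2 TPM), Ccdc9b, Mettl7b, Mrm1 and Slc6a4 every Met-low tumor exceeded every gland. In Rasa4 and Bcar3, 2 of the 3 Met-low tumors did so. In Sned1, Garnl3, Mbp, Scaf1 and Unc13b no Met-low tumor exceeded every gland.

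The genes higher in every Met-high tumor were unevenly spread over the chromosomes. Of the 133, 37 (27.8%) lie on chromosome 15, which holds 581 of the tested genes. That is 6.37% of the chromosome's tested genes, against 0.657% of the genes on all others and at most 1.26% on any 1 of them. In the opposite direction chromosome 15 had 1 gene (0.172%). The median log2 difference was 0.22 on chromosome 15 and between -0.27 and 0.04 on the other chromosomes, and 101 of its genes were higher and 5 lower at an unadjusted p under 0.05. Genes lower in every Met-high tumor were most frequent on chromosomes 10 and 7, at 2.16% and 2.07% of their tested genes, against 1.06% of all genes. The median log2 differences there were -0.27 and -0.22. At an unadjusted p under 0.05, 64 and 86 of their genes were lower and 7 and 11 higher. These chromosomes were singled out after the values were seen, so these numbers are a description.

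For each library, the median difference of chromosome 15 genes from the 4 glands was set against that of all genes. It was 0.17, 0.39, 0.25, 0.52, 0.45 and 0.31 on the log2 scale in tumors 64, 273_5, 567, 897, 219 and FVB002, and -0.04, -0.07 and 0.13 in tumors 89, 3956 and FVB001. All Met-high tumors thus lay above all Met-low tumors, with 64 and FVB001 close together, and the glands lay between -0.05 and 0.05. Less the median of all genes, the chromosome 15 difference between the groups was 0.33 in all tumors, 0.36 among batch 1 tumors alone and 0.37 among carcinomas alone. With no filter on low values it was 0.05, because unexpressed genes then enter the median. Its non-overlapping genes included Khdrbs3, Fkbp11 and Copz1, and also Commd5, at 44.3 to 53.5 (median 47.8) TPM against 29.8 to 36.5 TPM, and Atf4, a transcription factor of the amino acid stress response, at 197 to 360.5 (median 258) TPM against 165, 143 and 123 TPM, although 2 glands held 627 and 629 TPM. Myc, also on this chromosome, overlapped, at 50.4 to 172 (median 64) TPM against 93.4, 88.8 and 14.2 TPM. Of the 8 tested genes outside the Met window with the highest r with Met over the 9 tumors, 5 lie on chromosome 15, namely 1110038F14Rik, Yaf2, Commd5, Asb8 and Tomm22 (r from 0.95 to 0.969). The others were Paip2, Lrrc40 and Lsg1 (0.946 to 0.948), and their log2 differences between the groups were 0.23, 0.42 and 0.27. The gap between the groups raises these r values too. Within the 6 Met-high tumors, batch means left in, r was 0.094 for 1110038F14Rik and 0.747 to 0.872 for the rest of the 8.

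**Figure D4:**
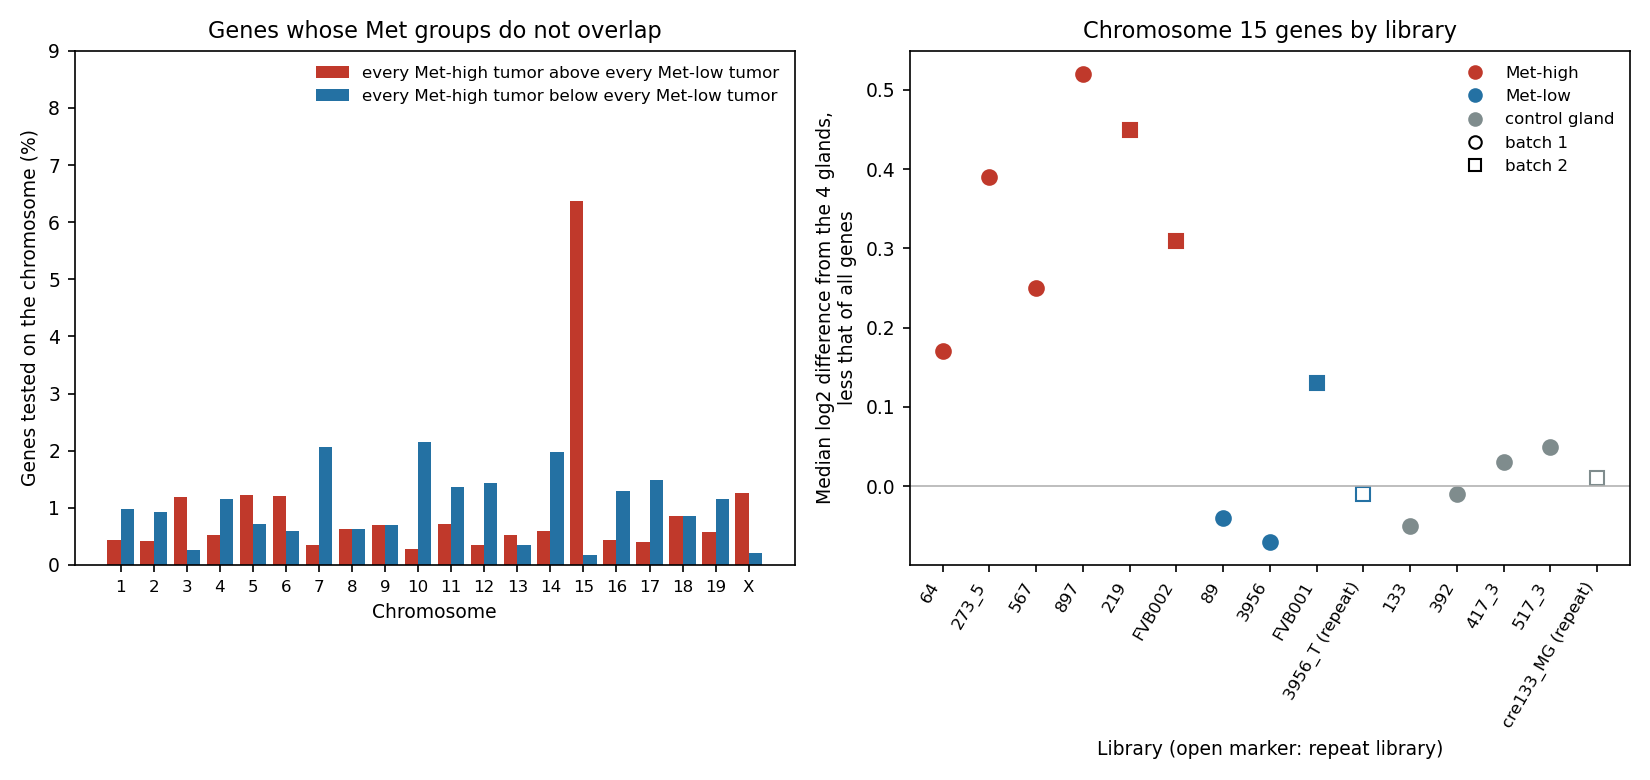
Left, the percent of the tested genes of each chromosome whose Met groups do not overlap, higher (red) and lower (blue) in Met-high tumors. Right, for each library the median log2 difference of chromosome 15 genes from the 4 control glands less that of all genes, where the 6 Met-high tumors lie between 0.17 and 0.52 and the 3 Met-low tumors between -0.07 and 0.13.

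Lists of genes that feed or carry the MET signal are described next. For each list the counts are to be read against all genes tested, of which 0.0% passed the adjusted threshold, 40.2% had an estimate above 0 and the median log2 difference was -0.11. At an unadjusted p under 0.05, 3.91% of all genes were higher and 4.5% lower. In 0.875% every Met-high tumor lay above every Met-low tumor, and in 1.06% every one lay below. Of 23 genes of the ligand, its activation and the receptor's partners, 22 were tested and 0 passed the adjusted threshold, with 6 estimates above and 16 below 0 and a median log2 difference of -0.29. Hgf, the ligand, was at 12.2, 2.09, 3.76, 17.5, 0.23 and 1.19 TPM in the Met-high tumors and 3.31, 2.00 and 0.86 TPM in the Met-low tumors. It was highest in the carcinosarcomas 897 and 64 and overlapped widely. Plxnb2, a plexin that binds MET, was the list's only gene without overlap (0.875% of all genes were higher in this way). It was at 141 to 328 (median 197) TPM against 125, 132 and 129 TPM, and it too lies on chromosome 15. Mst1r, the receptor for macrophage-stimulating protein and the closest relative of MET, was at 0.38, 0.71, 1.09, 1.12, 0.40 and 5.22 TPM in the Met-high tumors and 6.90, 1.81 and 13.2 TPM in the Met-low tumors (log2 difference -1.68 ± 0.52, SE, unadjusted p = 0.0104). Hgfac, a protease that activates the ligand, was at 0.00, 0.19, 0.11, 0.04, 1.42 and 1.09 TPM in the Met-high tumors and 8.11, 9.16 and 0.38 TPM in the Met-low tumors, so that tumors 89 and 3956 were high and FVB001 was not. Without FVB001 the log2 difference of Hgfac was -3.15 and passed the threshold (limma adjusted p = 0.0204). The matriptase gene St14 and its inhibitor gene Spint1, both epithelial, were at 2.10, 5.86 and 1.18 TPM and at 0.80, 1.12 and 0.17 TPM in the carcinosarcomas 64, 567 and 897, against 63.9 to 96.05 TPM and 27.7 to 33.9 TPM in the Met-high carcinomas. FVB001 was low in both (8.59 and 3.45 TPM) and tumors 89 and 3956 were not.

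Among downstream components, of 24 MET adaptors and kinases 0 passed, with 9 estimates above 0 and a median of -0.20. Only 1 gene was higher at an unadjusted p under 0.05, as were 3.91% of all genes. That gene was Rap1a, a small GTPase, at 45.3 to 222 (median 152) TPM against 94.5, 129 and 28.97 TPM. Sos1, the exchange factor that loads RAS, was at 1.69 to 5.16 (median 3.46) TPM against 36.6, 6.35 and 1.95 TPM, with tumor 89 apart. Gab1, the docking protein of MET, was at 5.35 to 8.78 (median 6.62) TPM against 10.2, 6.05 and 6.96 TPM. Of 24 PI3K-AKT-mTOR genes 0 passed, with a median of -0.18. Eif4e, the cap-binding translation factor, was at 46.5 to 195 (median 125) TPM against 107, 115 and 17.6 TPM, and Pdpk1 at 2.33 to 8.59 (median 6.53) TPM against 11.3, 13.9 and 4.05 TPM. Of 21 genes that ERK signalling induces or that feed back on it, 13 estimates were above 0, the median was 0.04, and 0 had an unadjusted p under 0.05. Dusp6, a phosphatase that reports ERK activity in many cells, was at 55.4 to 207 (median 78.9) TPM in Met-high and 191, 219.7 and 13 TPM in Met-low tumors. Etv1, an ETS factor gene, was at 2.19 to 26.2 (median 6.70) TPM against 2.63, 1.95 and 1.14 TPM, and Spred2, which inhibits RAF activation, at 6.04 to 13.04 (median 7.51) TPM against 16.6, 22.5 and 4.84 TPM. Among 26 tested genes for other receptor tyrosine kinases 4 estimates were above 0, with a median of -0.50. Egfr was at 1.59 to 7.65 (median 4.21) TPM against 8.50, 4.70 and 9.03 TPM, and Ret at 0.16 to 7.56 (median 1.87) TPM against 0.66, 10.5 and 23.4 TPM.

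The ERK list changed direction with the tumors compared. Among carcinomas alone (3 Met-high and 3 Met-low) 18 of its 21 estimates were above 0 (46.0% of all genes) and the median was 0.61. Among batch 1 tumors alone (4 Met-high, of which 3 are carcinosarcomas, and 2 Met-low) 2 of 21 were above 0 (35.4% of all genes) and the median was -0.93. FVB001, the Met-low tumor absent from the second comparison, had the lowest summed level of the list of all tumors, 192 TPM against 723 to 2135 TPM in the other 8. The second comparison also leaves out the Met-high carcinomas 219 and FVB002, and the cause of the change in direction was not tested.

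All 24 proliferation genes had an estimate above 0 (40.2% of all genes), with a median log2 difference of 0.85 and a lowest estimate of 0.29, and 14 of them had an unadjusted p under 0.05 (3.91% of all genes were higher at that p) while 0 passed the adjusted threshold. Birc5, the mitotic protein survivin, was at 159.7, 95.5, 106, 106, 69.7 and 40.8 TPM in the Met-high tumors and 66.8, 48.5 and 8.64 TPM in the Met-low tumors (unadjusted p = 0.00199, limma adjusted p = 0.484). Ccna2, cyclin A, was at 69.05, 39.7, 49.5, 34.1, 14.2 and 9.16 TPM in the Met-high tumors and 28.4, 19.2 and 1.76 TPM in the Met-low tumors. The groups overlapped in all 24 genes, because the Met-low tumor 89 exceeded the Met-high tumor FVB002 in each of them. Mki67, the marker of cycling cells, was highest in the Met-low tumor 89 (26.7 TPM). The sum over the list was 451 to 1455 TPM in Met-high tumors and 1033, 728 and 165 TPM in the Met-low tumors. Among batch 1 tumors alone, which leaves FVB001 out, 22 of 24 estimates were above 0, the median was 0.32 (all genes, -0.21) and 5 were higher at an unadjusted p under 0.05, as 2.41% of all genes were in that subset.

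Tumor FVB001, a member of the Met-low group, had the highest level of fat cell genes. Its 16 adipocyte genes summed to 68878 TPM, those of FVB002 to 34221 TPM and those of the other 7 tumors to between 209 and 2458 TPM. Adipoq, the fat cell hormone adiponectin, was at 4315 TPM in FVB001 and 1525 TPM in FVB002, against 1.27 to 68.2 TPM in the others. The control glands differed in the same way, with sums of 38695 and 48350.5 TPM in glands 133 and 392 and 2097 and 2270.3 TPM in the other two. Of the 16 adipocyte genes 0 had an estimate above 0, the median was -2.26, and 1 had an unadjusted p under 0.05 (4.5% of all genes were lower at that p). That gene, Pnpla2, a fat cell lipase, was at 15.1 to 539 (median 44.2) TPM against 187, 48.4 and 1235 TPM. Lipe, hormone-sensitive lipase, was at 5.72 to 310.4 (median 12.1) TPM against 53.6, 9.84 and 764 TPM. In such bulk samples fewer cells of a type and less RNA per cell cannot be told apart. The part of fat content in the differences was not tested. With FVB001 left out, the log2 difference was 4.59 for Tes, 4.87 for Capza2, 4.57 for St7 and 4.19 for Cav2.

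**Figure D5:**
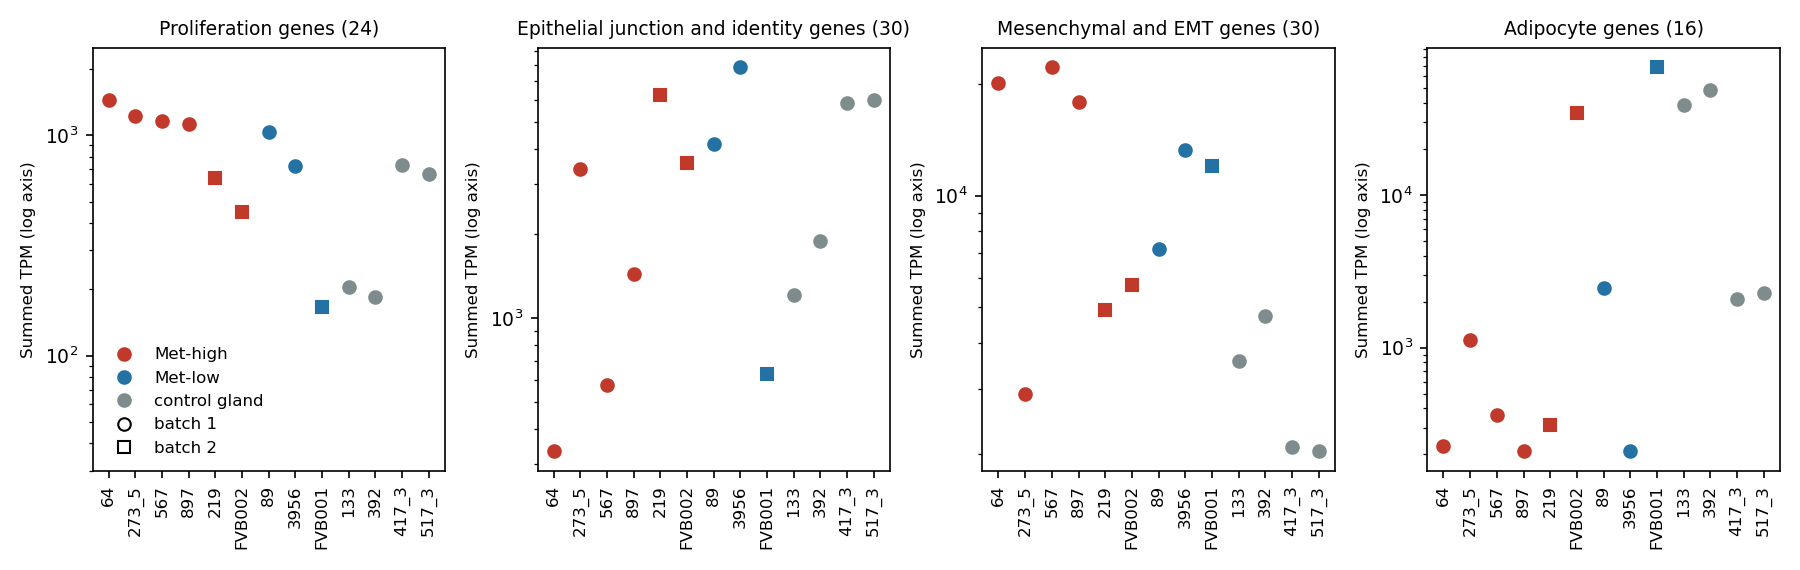
Summed TPM on a log axis of 4 gene lists (the number of genes in parentheses) in each tumor and control gland. The proliferation sum is lowest in tumor FVB001 and the adipocyte sum highest there, while the epithelial sum is lowest in tumor 64 and the mesenchymal sum highest in tumors 64, 567 and 897.

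Epithelial genes were lowest in the 3 carcinosarcomas and in FVB001, whose summed levels were 334 (64), 578 (567), 1431 (897) and 630.1 TPM (FVB001), against 3393 to 7861 TPM in the other 5 tumors. Epcam and Krt8, epithelial markers that check the tissue label, were present in every tumor, down to 2.73 TPM (897) and 130.2 TPM (64). Of 30 epithelial junction and identity genes, 2 estimates were above 0 (40.2% of all genes), the median was -0.90, and 0 had an unadjusted p under 0.05. Cdh1, E-cadherin, was at 3.19, 18.9 and 1.29 TPM in the carcinosarcomas 64, 567 and 897. It was at 84.8, 66.4 and 55.9 TPM in the Met-high carcinomas, and at 124, 103 and 4.84 TPM in the Met-low carcinomas. Crb3, an apical polarity gene, was at 0.41, 10.5, 1.89, 0.14, 14.97 and 9.12 TPM in the Met-high tumors and 59.4, 30.8 and 2.80 TPM in the Met-low tumors, and Ppl, periplakin, at 0.11 to 5.65 (median 2.16) TPM against 19.3, 4.81 and 3.36 TPM. Met itself was high in tumor 897, where Cdh1 and Epcam stood at only 1.29 and 2.73 TPM. Among carcinomas alone the epithelial median was 1.09, with 26 of 30 estimates above 0, and among batch 1 tumors alone it was -2.60, with 0 of 30 above 0. The direction of this list therefore turned with the tumors compared.

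Of 29 tested mesenchymal genes 13 estimates were above 0, with a median of -0.07. Snai1, a repressor of E-cadherin, was at 20.6 to 63.2 (median 44.2) TPM against 21.5, 39.5 and 8.92 TPM (unadjusted p = 0.0249), and Twist1 at 12.9 to 99.1 (median 45.5) TPM against 13.99, 45.1 and 16.8 TPM. Vim, vimentin, was at 1583, 2136 and 2722 TPM in the carcinosarcomas and 277 to 661 TPM in the Met-high carcinomas. The mesenchymal sum was 20207, 22259.5 and 17938 TPM in the carcinosarcomas 64, 567 and 897. It was 2914, 4911 and 5722 TPM in the Met-high carcinomas 273_5, 219 and FVB002. In the Met-low tumors 89, 3956 and FVB001 it was 7188, 13301 and 12049 TPM, above those carcinomas. Of 20 tested luminal genes 7 estimates were above 0, with a median of -0.08, and Cited1 and Wnt4 had the smallest p, at 1.02 to 11.6 (median 6.34) TPM against 3.94, 1.86 and 2.51 TPM and 0.73 to 2.01 (median 1.53) TPM against 13.97, 0.70 and 5.57 TPM. Of 16 basal genes 5 estimates were above 0, with a median of -0.31. Jag2, a Notch ligand, was at 2.12 to 7.05 (median 2.54) TPM against 33.96, 4.46 and 5.66 TPM, and Krt5 reached 961 TPM in the Met-low tumor 89 against at most 107 TPM, in tumor 219, among the Met-high tumors.

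Among 17 cell cycle inhibitors and p53 genes 5 estimates were above 0, with a median of -0.36. Cdkn2a, the p16 and ARF locus, had the largest difference of any listed gene with an unadjusted p under 0.05, 2.29 ± 0.58 (SE, unadjusted p = 0.0036, limma adjusted p = 0.516). It was at 779.7, 154, 887, 1074, 65.6 and 33.8 TPM in the Met-high tumors and 138, 90.2 and 10.01 TPM in the Met-low tumors, with the carcinosarcomas 64, 567 and 897 far above every other tumor. Among the Met-high carcinomas it overlapped the Met-low range. Sesn2, a stress-induced p53 target, was at 5.17 to 11.98 (median 10.2) TPM against 12.2, 20.3 and 17.6 TPM, lower in every Met-high tumor. Of 23 glycolysis and hypoxia genes 15 estimates were above 0, with a median of 0.15. Pkm and Pgk1, glycolytic enzymes, were at 697 to 2033 (median 1386) TPM against 929, 934 and 270.3 TPM and 361 to 1445 (median 704) TPM against 618, 505 and 137 TPM, with FVB001 lowest in both.

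Immune genes gave small and mixed differences. Of 18 macrophage genes 10 estimates were above 0, with a median of 0.23, and Ms4a7, a macrophage membrane gene, was higher in every Met-high tumor, at 129, 111, 63.4, 248, 89.2 and 49.6 TPM against 46.6, 37.6 and 29.1 TPM. Adgre1, which encodes the macrophage marker F4/80, was at 8.85 to 33.2 (median 22.8) TPM against 20.1, 22.8 and 8.36 TPM. Of 21 lymphocyte genes 16 estimates were above 0, with a median of 0.29. Trac, a T cell receptor constant gene, was at 3.32 to 10.6 (median 6.58) TPM against 5.40, 0.84 and 2.83 TPM, and Gzma at 0.12 to 2.73 (median 1.48) TPM against 4.51, 0.28 and 7.96 TPM. Of 20 interferon-stimulated genes 15 estimates were above 0, with a median of 0.41 and 0 at an unadjusted p under 0.05. Cxcl10, a chemokine, was at 61.8, 126, 12.1, 10.99, 153 and 86.8 TPM in the Met-high tumors and 63.6, 6.10 and 11.5 TPM in the Met-low tumors, and Oasl1 at 5.90 to 78.8 (median 32.4) TPM against 15.96, 9.28 and 7.81 TPM. Among carcinomas alone all 20 estimates of this list were above 0, with a median of 1.74 and 10 genes higher at an unadjusted p under 0.05, in a subset where 46.0% of all estimates were above 0 and 6.27% of all genes were higher at that p. Among batch 1 tumors alone 7 of 20 were above 0 with a median of -0.50. The 16 antigen presentation genes split evenly, 8 and 8, with a median of 0.02; Ciita, the activator of class II genes, was at 1.31 to 9.55 (median 2.24) TPM against 8.34, 11.6 and 0.71 TPM and H2-D1 at 514 to 2863 (median 1217) TPM against 1689, 609.7 and 3523 TPM.

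The last lists concern tissue content and the TRIM24 family. All 12 endothelial estimates were below 0, with a median of -0.48 and 0 at an unadjusted p under 0.05. Vwf, von Willebrand factor, was at 3.70 to 30.2 (median 5.94) TPM against 10.98, 12.9 and 68.8 TPM, and Flt1 at 4.70 to 16.7 (median 12.2) TPM against 14.9, 19 and 12.04 TPM. Of 11 skeletal muscle genes 10 were below 0, with a median of -0.84, and tumor 567 had the highest Acta1 of all tumors, 413 TPM. Myl1 was at 1.97 to 115 (median 8.07) TPM against 53.6, 11.9 and 50.5 TPM. Of 9 tested cartilage and bone genes 8 were above 0, with a median of 0.26, with overlap in both genes of smallest p. Col2a1, a cartilage collagen, was at 0.01, 9.72, 0.92, 0.45, 3.79 and 2.78 TPM in the Met-high tumors and 0.15, 0.16 and 0.31 TPM in the Met-low tumors. Col11a1, another one, was at 0.44 to 25.8 (median 10.9) TPM in the Met-high tumors and 6.25, 0.35 and 2.13 TPM in the Met-low tumors, so that tumors 64, 567 and 897 did not exceed tumor 89. Of 3 tested TIF1 family genes, Trim24 had a log2 difference of -0.51 ± 0.26 (SE) and Trim28, the family's corepressor for zinc finger proteins, one of 0.28 ± 0.18 (SE).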

How the data were processed

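Total RNA of mouse mammary tumors and glands was sequenced by the authors. Per the labels the libraries were made with a stranded total RNA kit, while the study's methods name another kit, and per those methods reads were aligned with STAR and quantified with RSEM on GRCm38 with the GENCODE M14 annotation. The submitters' processing notes also name FastQC, TopHat, Cufflinks, DESeq and edgeR with mm10; the strand setting is not given in the sources used here. The authors deposited TPM values, so no count test or counting interval was made here, and the depth per library is unknown from these values. The 51826 genes were matched by identifier to GENCODE M21 coordinates on the same build (51633 matched).

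The Met groups and the gene lists were chosen with earlier results of these data known. Genes with at least 1 TPM in at least 3 of 9 tumors were kept, Met was left out, and log2(TPM + 1) was fitted with limma 3.58.1 (R 4.3.3; Met group plus batch, empirical Bayes with a variance trend, Benjamini-Hochberg adjustment over all genes, two-sided). Fold changes are on this scale, which understates those of low genes. The samples come from separate mice. The script was tested on simulated data. 1 gene is not reported here. Lists are described by their counts and medians, with no set test.

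Named were Met and Trim24, the tested genes within 3 Mb of Met, the 12 genes in each direction with the smallest p among genes whose groups do not overlap (clone names and pseudogenes left out), the 2 members of each list with the smallest p, and the 8 genes most correlated with Met among those reaching 10 TPM; genes named beyond these, such as Hgf, Plxnb2, Cdh1, Adipoq, Atf4 and those in the stretch of tumor 64, were chosen after their values were seen. Alternatives were no batch term, batch 1 or carcinomas alone, a pseudocount of 0.1, no filter or 5 TPM, median-ratio and quantile scaling, the repeat library of tumor 3956, Met as a number, no variance trend, each tumor left out, a window of 1 Mb, and, added after the data were seen, the genes near Met left out.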

Additional observations from a re-analysis of the deposited data

Results flagged for a closer look

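In each of 92 named genes the 6 Met-high tumors were examined for a single tumor whose gap to the next one was too large a share of the group's range on log2(TPM + 1), by Dixon's 95% criterion. Chance alone sets apart about 1 in 20 such groups, and 7 of 92 were found. Tumor FVB002 stood above the other Met-high tumors in the lipase genes Lipe (310 TPM, against 5.72 to 19.8 TPM) and Pnpla2 (539 TPM, against 15.1 to 50.4 TPM), in Mst1r (5.22 TPM, against 0.38 to 1.12 TPM) and in Sned1 (1.93 TPM, against 0.77 to 0.98 TPM). The same tumor has the highest adipocyte sum of the group. In the Met-low tumors 89, 3956 and FVB001, Mst1r was at 6.90, 1.81 and 13.2 TPM and Sned1 at 6.12, 5.97 and 5.06 TPM. The part of fat content in these values was not tested. Tumor 567 stood above the group in the skeletal muscle gene Acta1 (413 TPM, against 3.07 to 19.7 TPM) and in the Notch ligand gene Jag2 (7.05 TPM, against 2.12 to 2.94 TPM). Tumor 64 stood below the group in the short noncoding RNA Gm27960 within St7, listed at 0.0 TPM against 4.65 to 13.7 TPM in the other 5.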

How the results depend on the processing

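The count of genes past an adjusted p of 0.05 was 0 on each side in the fit reported and stayed near 0. On the higher side it became 1 without the batch term (Tes), 1 with a pseudocount of 0.1 and 1 without the variance trend (Gm15473 in both), 2 with at least 5 TPM required (Tes and Gm15473) and 4 with Met as a number (Capza2, St7, Tes and Gm15473). On the lower side it became 1 with no filter (Gm8942) and 1 with the repeat library of tumor 3956 (Gm26473). Leaving out 1 tumor at a time gave 0 to 2 genes on the higher side and 0 to 2 on the lower side: Tes and Gm15473 without tumor 64, Gm15536 without tumor 567, and Hgfac, on the lower side, without FVB001, after which the only Met-low tumors are of batch 1. The cause of these changes was not tested. Batch 1 alone, carcinomas alone, both other scalings and the test without the genes near Met gave 0 on both sides.

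Of the tested genes within 3 Mb of Met, 11 of 22 were higher at an unadjusted p under 0.05, and 8 of 14 in a window of 1 Mb; leaving out 1 tumor at a time gave 7 to 11, with 7 without tumor 3956. The Met level of tumor 3956 was 30.9 TPM and 19.6 TPM in its repeat library, under 100 TPM in both. Of 1758 log2 differences of named genes under the alternatives other than Met as a number, 8 had the opposite sign after rounding, in 3 genes (H2-D1, Tfec and Wnt2). The lowest value of Lsg1 rounded to -0.0 and is not among them. Tes stayed between 3.83 and 4.59, Capza2 between 3.96 and 4.87 and Sned1 between -2.38 and -1.54. With 3 Met-low tumors, of which 1 is fat-rich, differences of smaller size were not detectable with confidence. No paired analysis was possible because each tumor comes from another mouse and belongs to 1 Met group only.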
